A study of Mus musculus with 12 samples.

Results

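The epidermal growth factor (EGF) receptor family and its ligands are described here through 10 genes, out of 39017 in the deposited count tables. They are the receptors Egfr, Erbb2 and Erbb3, the ligands Areg, Ereg, Hbegf, Tgfa, Btc and Nrg1, and the receptor inhibitor Errfi1. The genes were chosen by name from this family with the results of the KO against VC comparisons already known, so their values are given as a description and carry no p-value. All 10 were found in both tables.

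The samples came from 4T1, a mammary carcinoma line of the BALB/c mouse labelled as triple-negative breast cancer. RNA was sequenced after ribosomal RNA depletion from 12 samples in 4 groups of 3. These were tumors grown from cells labelled POGZ KO, tumors from cells labelled POGZ WT (titled VC, an abbreviation the labels do not spell out), KO-labelled cultures and VC-labelled cultures. Tumors grew for 28 days after 50k cells were placed in the site labelled MFP-4 of 8-week-old BALB/c mice, and were flash frozen. Cultures grew in DMEM with 10% serum and were taken at 75% confluency. The labels do not say whether either line was 1 clone, or whether the cultures were grown separately, so the p-values below measure only the spread between these samples, which may be technical.

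The RNA of the targeted gene went against its label in culture. Pogz averaged 68.3 ± 0.428 CPM (a gene's counts scaled to the library total) in KO-labelled cultures, against 50.3 ± 2.03 CPM in VC-labelled cultures, and 107 ± 23.4 CPM in KO-labelled tumors, against 99.3 ± 11.9 CPM in VC-labelled tumors (SD, n = 3 each). The log2 fold change in culture was 0.45 ± 0.04, the median gene of chromosome 3, where Pogz lies, being at 0.33. Whole-gene counts do not show whether the reading frame is intact. Every direction given here is therefore one between libraries named by their labels. Library totals ran to 12128993 to 13043831 counts in KO-labelled tumors, against 4712001 to 8338828 in VC-labelled tumors, and 14724518 to 21863223 in KO-labelled cultures, against 17714560 to 18643217 in VC-labelled cultures, so low genes were measured least precisely in the VC-labelled tumors. Of a list of 10 carcinoma markers, Epcam, Krt8 and Krt18 were present in all groups, while Cldn7 had group means of only 0.207 to 1.61 CPM. Epcam averaged 386 and 555 CPM in KO- and VC-labelled tumors, and 230 and 326 CPM in KO- and VC-labelled cultures. Krt8 averaged 216 and 218 CPM in KO- and VC-labelled tumors, and 466 and 353 CPM in KO- and VC-labelled cultures. Krt18 averaged 453 and 519 CPM in KO- and VC-labelled tumors, and 863 and 613 CPM in KO- and VC-labelled cultures.

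EGF-like ligands are made as membrane-anchored precursors, released by ADAM metalloproteases, and bind receptor tyrosine kinases that pair up and signal through the RAS-ERK and PI3K-AKT cascades. Amphiregulin (Areg) and TGF-alpha (Tgfa) bind Egfr, epiregulin (Ereg), betacellulin (Btc) and heparin-binding EGF (Hbegf) bind Egfr and Erbb4, and neuregulin 1 (Nrg1) binds Erbb3 and Erbb4. Erbb2 has no known ligand of its own and acts as a partner, and Erbb3 has very weak kinase activity. Errfi1, also called Mig6, binds the kinase domain of the receptors and blocks it, and is itself induced by their signalling. In the mammary gland amphiregulin and Egfr are known for their role in duct growth.

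On GRCm38, in the GENCODE M21 annotation, Egfr (ENSMUSG00000020122) lies at chr11:16752203-16918158 and Erbb2 (ENSMUSG00000062312) at chr11:98412470-98437716, both on the plus strand, and Erbb3 (ENSMUSG00000018166) at chr10:128567523-128589652 on the minus strand. Errfi1 (ENSMUSG00000028967) lies at chr4:150853919-150868892 on the plus strand. Of the ligands, Areg (ENSMUSG00000029378) lies at chr5:91139599-91148432, Ereg (ENSMUSG00000029377) at chr5:91074622-91093646 and Tgfa (ENSMUSG00000029999) at chr6:86195223-86275719, on the plus strand. Btc (ENSMUSG00000082361) lies at chr5:91357261-91402994 and Nrg1 (ENSMUSG00000062991) at chr8:31814551-32884029, on the minus strand. These genes and Hbegf (ENSMUSG00000024486) are protein-coding. Epgn, Ereg, Areg and Btc lie in this order on mouse chromosome 5, with 39.4 kb between Epgn and Ereg, 46.0 kb between Ereg and Areg and 209 kb between Areg and Btc. The promoter windows of Egfr and Errfi1, which were higher in KO-labelled cultures, and of the 3 ligands Areg, Tgfa and Btc, which were lower there, are printed to let the upstream sequences be compared. Each holds the 250 bases before a RefSeq start on GRCm38.p6, on the gene's own strand, and 6 of the 10 genes were matched in the promoter table. The windows are chr11:16751953-16752202 (plus strand) for Egfr, chr4:150854820-150855069 (plus) for the second of 2 Errfi1 starts, chr5:91139349-91139598 (plus) for Areg, chr6:86194972-86195221 (plus) for Tgfa and chr5:91402995-91403244 (minus) for Btc. Capitals mark matches, on either strand, to the GC box GGGCGG, the AP-1 element TGANTCA, the cyclic AMP response element (CRE) TGACGTCA or the TATA box TATAAA.
Egfr: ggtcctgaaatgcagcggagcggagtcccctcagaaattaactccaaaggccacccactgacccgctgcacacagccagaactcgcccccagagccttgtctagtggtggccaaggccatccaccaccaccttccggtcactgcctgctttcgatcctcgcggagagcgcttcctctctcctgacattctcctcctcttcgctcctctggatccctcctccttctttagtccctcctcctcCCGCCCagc
Errfi1: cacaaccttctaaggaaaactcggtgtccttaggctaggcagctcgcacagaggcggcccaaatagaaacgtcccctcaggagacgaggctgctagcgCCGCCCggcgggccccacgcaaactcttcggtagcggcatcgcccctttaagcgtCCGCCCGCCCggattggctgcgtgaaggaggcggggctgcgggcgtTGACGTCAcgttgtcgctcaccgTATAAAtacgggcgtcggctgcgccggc
Areg: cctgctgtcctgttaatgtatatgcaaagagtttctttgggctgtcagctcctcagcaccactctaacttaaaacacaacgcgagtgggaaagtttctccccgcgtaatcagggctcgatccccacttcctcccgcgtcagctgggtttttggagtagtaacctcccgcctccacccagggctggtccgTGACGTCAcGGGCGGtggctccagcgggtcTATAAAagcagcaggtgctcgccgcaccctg
Tgfa: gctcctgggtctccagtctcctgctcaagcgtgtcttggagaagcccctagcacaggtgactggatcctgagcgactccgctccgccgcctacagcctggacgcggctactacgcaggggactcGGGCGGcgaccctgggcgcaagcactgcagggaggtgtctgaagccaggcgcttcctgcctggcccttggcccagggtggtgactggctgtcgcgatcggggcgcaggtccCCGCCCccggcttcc
Btc: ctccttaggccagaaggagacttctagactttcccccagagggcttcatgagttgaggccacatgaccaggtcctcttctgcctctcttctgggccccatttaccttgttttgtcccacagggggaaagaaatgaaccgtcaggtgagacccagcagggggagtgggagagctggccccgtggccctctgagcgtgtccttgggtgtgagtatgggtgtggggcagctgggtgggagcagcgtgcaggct

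The Areg and Errfi1 windows each held a CRE, a TATA box and at least 1 GC box. In Areg the CRE began 61 bases and the TATA box 31 bases before the start. In Errfi1 they began 51 and 28 bases before it, and 2 of its 3 GC boxes overlapped. The 250 bases before the other Errfi1 start (chr4:150853546-150853795) held none of the 4 motifs. Among all 32851 promoter windows of this length, 1.55% held the CRE, 12.4% the TATA box and 32.7% the GC box, and 11 windows (0.0335%) held all 3. The Egfr window held 1 GC box and no TATA box, the Tgfa window 2 GC boxes, and the Btc window none of the motifs. No window held the AP-1 element, which 6.75% of all windows held. The first bases after the start were found in a GENCODE M21 transcript for Areg, Btc and Egfr, but not for Tgfa or either Errfi1 start. A match is a string of letters, and which start these cells used was not measured.

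**Figure D1:**
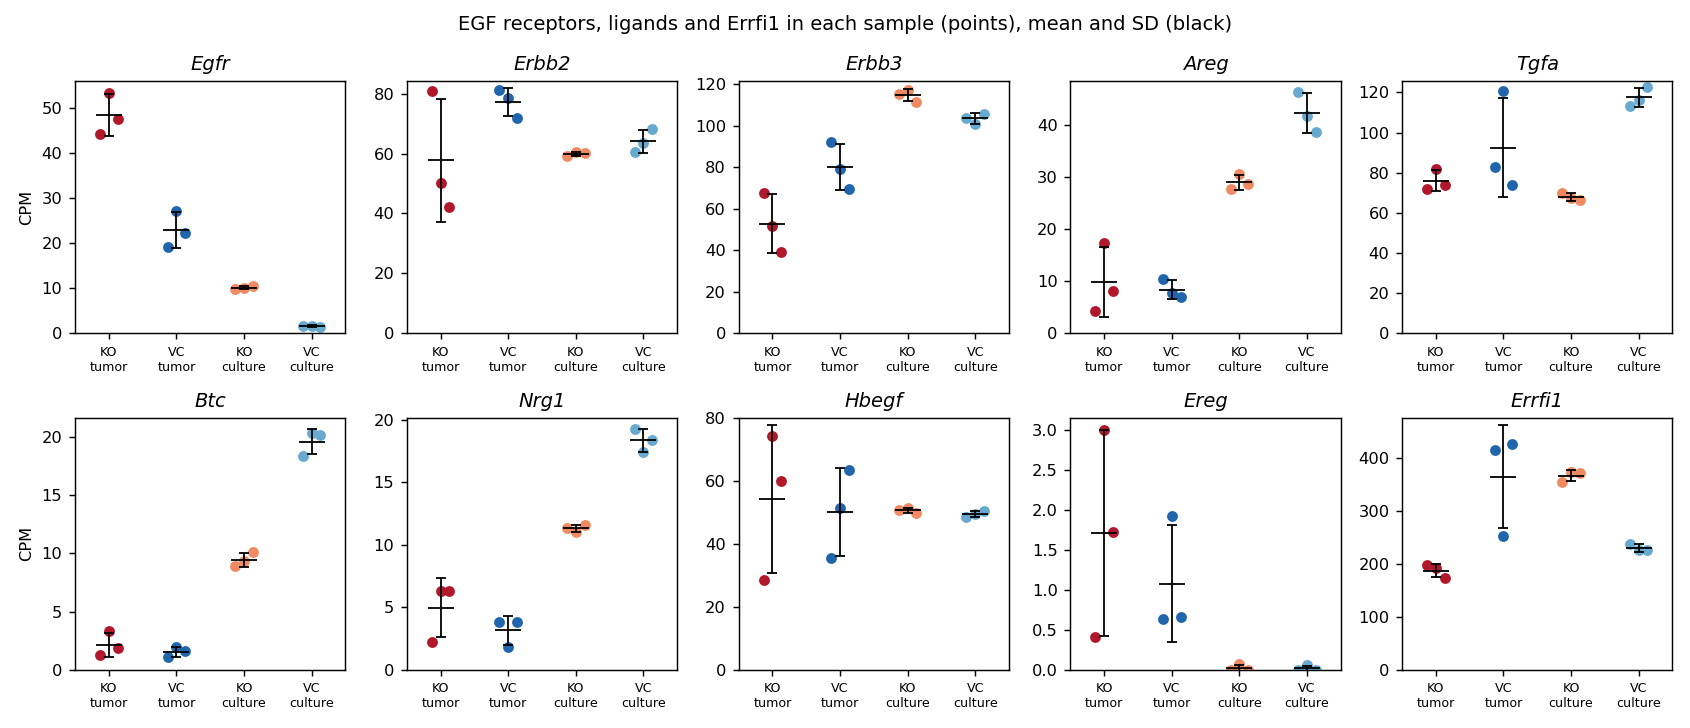
CPM (linear axes starting at 0) of the 10 genes in every sample, with the mean and SD in black (n = 3 per group). Egfr was highest in KO-labelled tumors (44.4 to 53.4 CPM) and lowest in VC-labelled cultures (1.4 to 1.64 CPM), while Areg, Btc and Nrg1 were highest in VC-labelled cultures.

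In culture, KO-labelled cells had more Egfr and Errfi1 RNA and less Areg, Btc, Nrg1 and Tgfa RNA than VC-labelled cells. Egfr had the largest log2 fold change of the 9 genes tested. It had 9.73, 9.98 and 10.5 CPM in KO-labelled cultures, against 1.64, 1.61 and 1.4 CPM in VC-labelled cultures. The groups were far apart, although the VC-labelled value rests on only 26 to 30 counts per library. The fold change fitted with edgeR was 6.52, a log2 fold change of 2.70 ± 0.13 (SE). The partner receptor Erbb2 had 59.2, 60.4 and 60.1 CPM in KO-labelled cultures, against 60.6, 63.6 and 68.3 CPM in VC-labelled cultures, a log2 fold change of -0.09 ± 0.05 that was not called. Erbb3 had 115, 117 and 112 CPM in KO-labelled cultures, against 104, 101 and 106 CPM in VC-labelled cultures. Its log2 fold change of 0.16 ± 0.04 was called. With each chromosome's median log2 fold change taken out it was 0.02 and not called, the median gene of chromosome 10 being at 0.14.

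Btc, Tgfa, Nrg1 and Areg were called lower in KO-labelled cultures, as were 24.9% of all genes tested. Btc had 8.92, 9.37 and 10.1 CPM in KO-labelled cultures, against 18.4, 20.3 and 20.2 CPM in VC-labelled cultures, a log2 fold change of -1.04 ± 0.08. Tgfa had 69.9, 67.2 and 66.4 CPM in KO-labelled cultures, against 113, 116 and 123 CPM in VC-labelled cultures, a log2 fold change of -0.79 ± 0.04. The groups stood well apart for both genes. The median gene of chromosome 6, where Tgfa lies, stood at -0.45, and Tgfa's value with the chromosome medians taken out was -0.33 and still called. Nrg1 had 11.3, 11.0 and 11.6 CPM in KO-labelled cultures, against 19.2, 17.4 and 18.4 CPM in VC-labelled cultures (log2 fold change -0.69 ± 0.07). An antisense non-coding gene, Gm26578, overlaps 4.66% of Nrg1's exon length, and whether counting used strand is not given in the sources used here. Areg had 27.7, 30.6 and 28.7 CPM in KO-labelled cultures, against 46.3, 41.7 and 38.7 CPM in VC-labelled cultures (log2 fold change -0.54 ± 0.07).

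The remaining ligands did not separate the cultures. Hbegf had 50.8, 51.5 and 50.0 CPM in KO-labelled cultures, against 48.7, 49.5 and 50.5 CPM in VC-labelled cultures (log2 fold change 0.04 ± 0.04, not called), and the groups overlapped. Ereg had 0, 1 and 0 counts in KO-labelled cultures and 0, 1 and 0 counts in VC-labelled cultures, at or below a floor of 3 counts per library, so that no difference could be measured at this depth.

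Errfi1, the inhibitor, had 355, 373 and 373 CPM in KO-labelled cultures, against 238, 226 and 226 CPM in VC-labelled cultures, with no overlap. The log2 fold change was 0.68 ± 0.04, and 0.96 with the chromosome medians taken out, the median gene of chromosome 4 being at -0.28. Of the 9 genes kept for the test, Ereg being too low, 3 were called higher and 4 lower at an adjusted p under 0.05. Over all 15705 genes tested, 23.0% were called higher and 24.9% lower, and since the genes were chosen with this comparison known, nothing is read from their count. A single fit of all 12 samples, in which the more variable tumors share the estimate of spread, called 4 of them, namely Egfr, Tgfa, Btc and Errfi1.

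**Figure D2:**
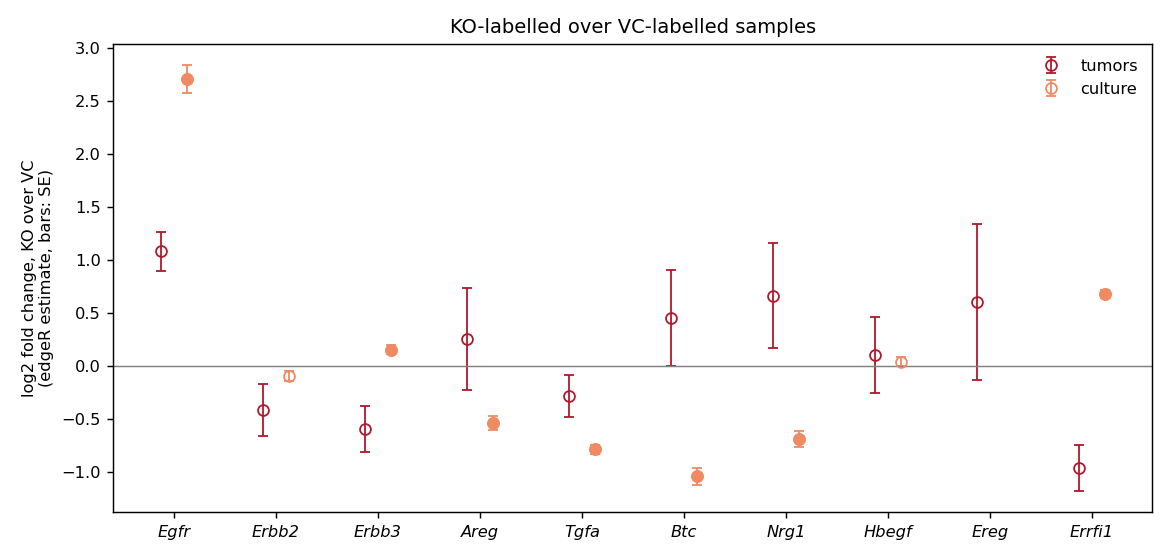
Log2 fold change of KO-labelled over VC-labelled samples (edgeR estimates, bars show the SE, n = 3 against 3) in tumors and in culture, filled where called at an adjusted p under 0.05. Egfr lay above 0 in both systems, while Erbb3 and Errfi1 lay above 0 in culture and below 0 in tumors. Ereg has no culture value.

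Between the tumors, Egfr was higher and Erbb3 and Errfi1 lower in KO-labelled than in VC-labelled samples without overlap, and no gene passed the edgeR test. Egfr had 44.4, 53.4 and 47.5 CPM in KO-labelled tumors, against 19.1, 27.1 and 22.3 CPM in VC-labelled tumors. Every KO-labelled tumor lay above every VC-labelled tumor, with a log2 fold change of 1.08 ± 0.19. Errfi1 had 198, 192 and 173 CPM in KO-labelled tumors, against 415, 253 and 427 CPM in VC-labelled tumors, a log2 fold change of -0.96 ± 0.22, the opposite direction to culture. Erbb3 had 67.7, 51.7 and 39.1 CPM in KO-labelled tumors, against 91.9, 78.9 and 69.5 CPM in VC-labelled tumors, a log2 fold change of -0.59 ± 0.22. Its groups were separated by a narrow margin. Erbb2 had 81.0, 50.1 and 42.2 CPM in KO-labelled tumors, against 81.3, 78.5 and 72.0 CPM in VC-labelled tumors. The KO-labelled tumor POGZ_KO_8454 lay within the VC-labelled range, and the log2 fold change of -0.41 ± 0.24 was -0.75 without it.

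All 6 ligands overlapped between the tumor groups. Areg had 4.2, 17.3 and 8.04 CPM in KO-labelled tumors, against 10.4, 7.67 and 6.91 CPM in VC-labelled tumors. Both the lowest and the highest Areg value were in KO-labelled tumors, and the log2 fold change of 0.25 ± 0.48 was -0.43 without the KO-labelled tumor POGZ_KO_8455. Tgfa had 71.9, 81.8 and 73.9 CPM in KO-labelled tumors, against 82.8, 121 and 74.0 CPM in VC-labelled tumors (log2 fold change -0.28 ± 0.20). Btc had 1.24, 3.30 and 1.89 CPM in KO-labelled tumors, against 1.06, 1.92 and 1.59 CPM in VC-labelled tumors (log2 fold change 0.45 ± 0.46). These Btc values rest on 5 to 43 counts per library. Nrg1 had 2.23, 6.29 and 6.32 CPM in KO-labelled tumors, against 3.82, 1.80 and 3.85 CPM in VC-labelled tumors (log2 fold change 0.67 ± 0.49). Hbegf had 28.6, 74.4 and 59.9 CPM in KO-labelled tumors, against 35.7, 51.6 and 63.5 CPM in VC-labelled tumors (log2 fold change 0.10 ± 0.36). Ereg had 5, 39 and 21 counts in KO-labelled tumors and 3, 16 and 5 counts in VC-labelled tumors. No direction can be read for the ligands in tumors at this spread.

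Over all 17153 genes tested in tumors, edgeR's quasi-likelihood test called 0.0% in either direction, 0 genes, with 956 at an unadjusted p under 0.05. DESeq2 called 66 genes and the single fit of all 12 samples 64, both with Egfr and Errfi1 among them. Limma-voom called 0. In 4.96% of the genes tested every KO-labelled tumor lay above every VC-labelled tumor, as Egfr did, and in 5.43% every one lay below, as Erbb3 and Errfi1 did. In bulk tumor RNA, fewer cells of a type and less RNA per cell cannot be told apart. The summed level of 10 carcinoma markers ranged over 1975 to 2317 CPM in KO-labelled tumors, against 2106 to 2773 CPM in VC-labelled tumors. That of 10 fibroblast and pericyte markers ranged over 3671 to 6794 CPM in KO-labelled tumors, against 2462 to 3995 CPM in VC-labelled tumors. That of 9 mammary luminal and milk markers did not overlap, at 79.4 to 668 CPM in KO-labelled tumors, against 52.7 to 69.4 CPM in VC-labelled tumors. The 668 CPM were in POGZ_KO_8459. The milk genes Csn2, Csn1s2a and Csn1s1 averaged 91.1, 67.2 and 59.5 CPM in KO-labelled and 0.902, 0.0707 and 0.323 CPM in VC-labelled tumors. The list also summed to 44.8 to 45.6 CPM in KO-labelled and 37.5 to 41.5 CPM in VC-labelled cultures. Esr1 went the other way in tumors (36.7 CPM in KO-labelled, against 43.7 CPM in VC-labelled). It averaged 40.5 and 36.9 CPM in KO- and VC-labelled cultures. The sum of 8 skin keratinocyte markers did not overlap either, at 18.4 to 32.6 CPM in KO-labelled tumors, against 6.96 to 14.6 CPM in VC-labelled tumors. Flg and Krt1 were at 0 in all tumors. Trp63 averaged 14.9 CPM in KO-labelled and 4.32 CPM in VC-labelled tumors. Krt10 (3.73 against 4.38 CPM) and Dsg1a (0.0805 against 0.359 CPM) went the other way. In KO- and VC-labelled cultures Krt10 averaged 3.70 and 3.80 CPM, and Trp63 1.70 and 0.977 CPM. The other 7 lists overlapped between the groups. Endothelial markers summed to 250 to 301 CPM in KO-labelled tumors, against 153 to 274 CPM in VC-labelled tumors, and macrophage markers to 1046 to 2207 CPM in KO-labelled and 758 to 1561 CPM in VC-labelled tumors. Neutrophil markers summed to 172 to 716 CPM in KO-labelled and 144 to 585 CPM in VC-labelled tumors. T and NK cell markers summed to 40.6 to 123 CPM in KO-labelled tumors, against 24.6 to 54.5 CPM in VC-labelled tumors, adipocyte markers to 16.2 to 97.8 CPM in KO-labelled and 4.65 to 37.4 CPM in VC-labelled tumors, and B cell markers to 1.4 to 106 CPM in KO-labelled and 0.839 to 3.18 CPM in VC-labelled tumors. Skeletal muscle markers overlapped too, at 3.05 to 23.0 CPM in KO-labelled tumors, against 7.44 to 22.2 CPM in VC-labelled tumors. The part of these cells in the tumor values was not tested. In culture the fibroblast markers Dcn, Lum and Thy1 were at 0 in every library, and the list summed to 19.5 to 20.5 CPM in KO-labelled and 27.4 to 31.0 CPM in VC-labelled cultures. Most of this sum was Pdgfra, at 15.6 and 26.5 CPM on average in KO- and VC-labelled cultures.

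**Figure D3:**
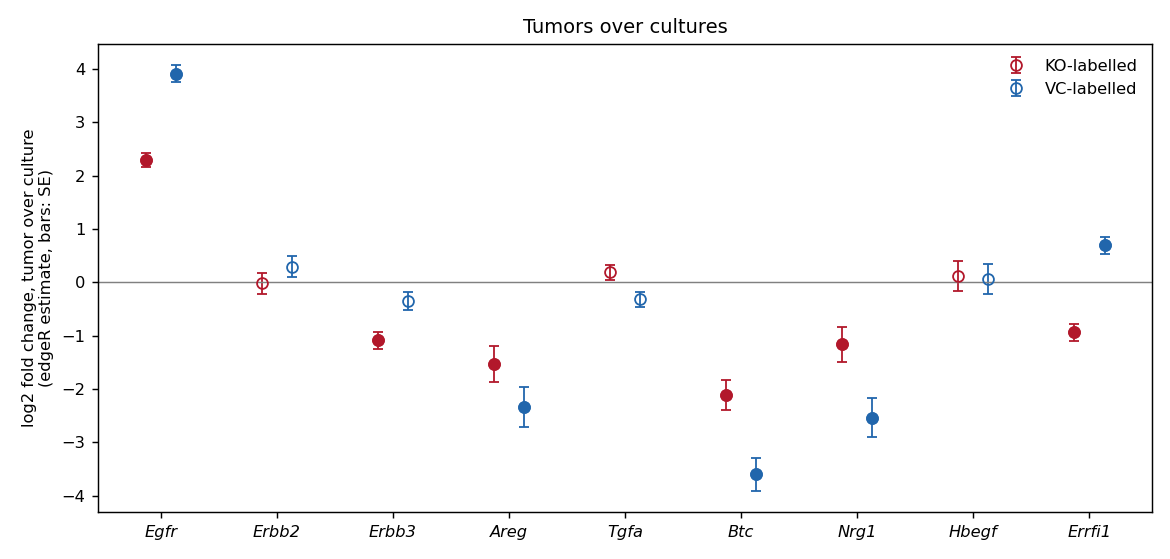
Log2 fold change of tumors over cultures (edgeR estimates from a fit of all 12 samples, bars show the SE) within KO-labelled and within VC-labelled samples, filled where called. Ereg, with 1 count in each culture group, is left out. Egfr lay at 2.29 within KO-labelled and 3.91 within VC-labelled samples, and Areg, Btc and Nrg1 lay below 0 within both.

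Set against the cultures, tumors had more Egfr and Ereg and less Areg, Btc and Nrg1 within both labels. Egfr was 4.90-fold higher in tumors within KO-labelled samples (log2 fold change 2.29 ± 0.14) and 15.0-fold higher within VC-labelled samples (3.91 ± 0.16). Its order of group means was KO-labelled tumors, VC-labelled tumors, KO-labelled cultures and VC-labelled cultures, and no neighbours in that order overlapped. Btc showed log2 fold changes of -2.11 ± 0.27 within KO-labelled and -3.60 ± 0.30 within VC-labelled samples. Areg showed -1.53 ± 0.35 within KO-labelled and -2.33 ± 0.37 within VC-labelled samples, and Nrg1 -1.16 ± 0.33 within KO-labelled and -2.53 ± 0.36 within VC-labelled samples. For these 3 ligands the order of means was VC-labelled cultures, KO-labelled cultures, KO-labelled tumors and VC-labelled tumors, and only the last pair overlapped.

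Ereg was barely detected in culture. Its 65 counts in the 3 KO-labelled tumors, against 1 count in the 3 KO-labelled cultures, give a ratio of CPM of 93.7 (exact 95% interval 16.2 to 3757). The 24 counts in VC-labelled tumors, against 1 count in VC-labelled cultures, give a ratio of 64.0 (exact 95% interval 10.4 to 2632). These intervals cover counting error only.

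Hbegf showed no call between tumors and cultures, with log2 fold changes of 0.12 ± 0.27 within KO-labelled and 0.06 ± 0.28 within VC-labelled samples, neither called, and all 4 of its groups overlapped their neighbours. Erbb2 also stayed uncalled, at -0.02 ± 0.19 within KO-labelled and 0.30 ± 0.19 within VC-labelled samples. Erbb3 was lower in tumors within KO-labelled samples (-1.09 ± 0.16, called) and at -0.34 ± 0.16, not called, within VC-labelled samples, where 6 of 18 alternative settings called it. Its 4 groups ran from KO-labelled cultures through VC-labelled cultures and VC-labelled tumors down to KO-labelled tumors, with no overlap between neighbours. Tgfa was at 0.19 ± 0.14 within KO-labelled and -0.32 ± 0.14 within VC-labelled samples, neither called, though 6 of 18 alternative settings called it within VC-labelled samples. Errfi1 was lower in tumors within KO-labelled samples (-0.94 ± 0.16) and higher within VC-labelled samples (0.70 ± 0.16), both called. Its highest groups, KO-labelled cultures and VC-labelled tumors, overlapped, and VC-labelled cultures and KO-labelled tumors followed below them, each apart from the next.

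Within KO-labelled samples 2 of the 10 genes were called higher and 5 lower in tumors, where 37.7% and 26.4% of 18419 genes were called. Within VC-labelled samples 3 were called higher and 3 lower, where 37.9% and 27.0% of genes were called. The median log2 fold change of all genes was 0.16 within KO-labelled and 0.17 within VC-labelled samples. Tumors also contain host cells that cultures lack. The carcinoma marker sum was 1975 to 2773 CPM over both sets of tumors, against 3674 to 4252 CPM over both sets of cultures. Fibroblast, macrophage and endothelial marker sums were each higher in every tumor than in every culture. The macrophage list, for example, summed to 758 to 2207 CPM over both sets of tumors, against 45.1 to 50.2 CPM in KO-labelled cultures and 55.5 to 58.5 CPM in VC-labelled cultures. How much of each tumor value came from host cells was not tested.

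The difference of the KO over VC effect between tumors and culture was called for 2 of the 10 genes, where 2.05% of 18419 genes were called. It was -1.62 ± 0.20 on the log2 scale for Egfr, whose ratio was smaller in tumors, and -1.63 ± 0.23 for Errfi1, whose ratio lay on opposite sides of 1 in the 2 systems. Both stayed called under all 18 alternative settings of that fit. The genes were chosen with the KO against VC results known, so nothing is read from their count. The calls are not independent evidence. Btc and Nrg1 had differences of 1.49 ± 0.41 and 1.37 ± 0.48 and were not called. Both were called without the KO-labelled tumor POGZ_KO_8454, and Btc was also called with DESeq2. Erbb3's difference of -0.74 ± 0.23 was not called, but was called with DESeq2 and without POGZ_KO_8454.

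**Figure D4:**
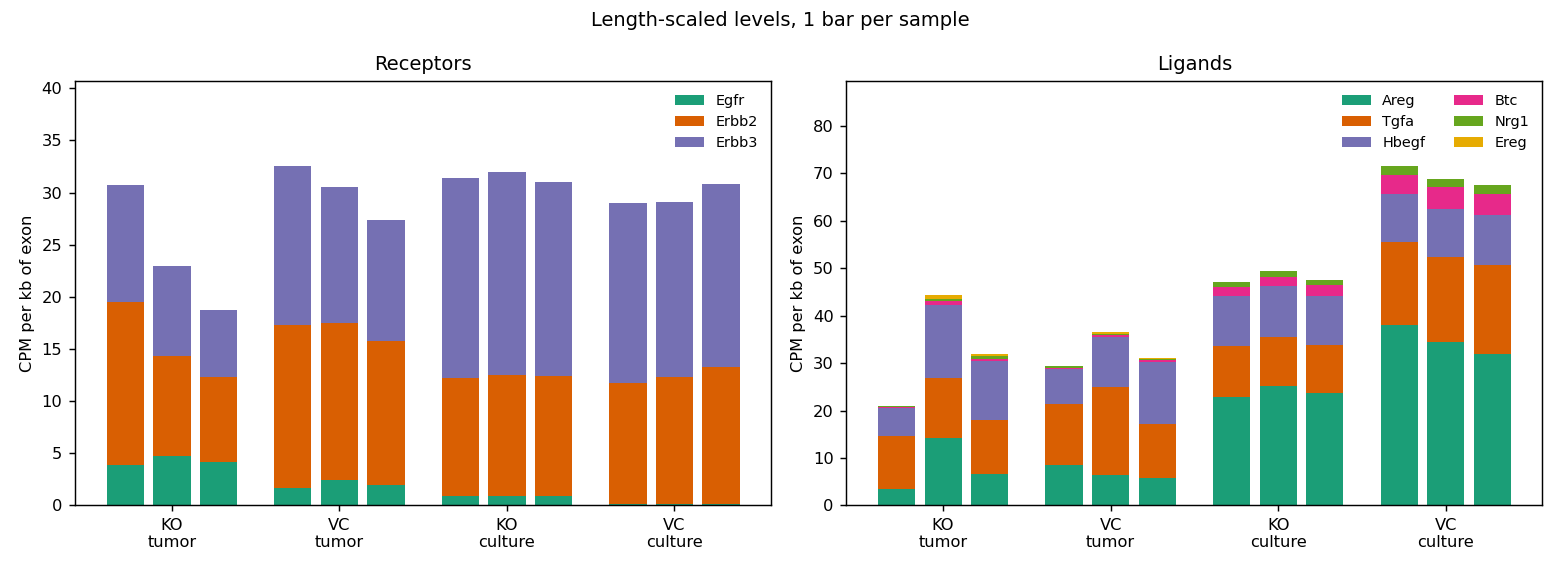
CPM per kilobase of exon for the 3 receptors and for the 6 ligands, stacked, with 1 bar per sample. Erbb2 and Erbb3 made up most of the receptor signal in every sample, the Egfr part was largest in KO-labelled tumors, and the Areg part of the ligand signal was larger in cultures than in tumors.

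Levels of different genes were compared per length, as CPM per kilobase of exon. Egfr made up 18.6% ± 5.10 of the summed receptor signal in KO-labelled tumors and 6.74% ± 1.38 in VC-labelled tumors, and 2.83% ± 0.137 in KO-labelled cultures and 0.463% ± 0.0526 in VC-labelled cultures (SD, n = 3 each). The per-length ratio of Egfr to Erbb3 was 0.348, 0.549 and 0.646 in KO-labelled tumors, against 0.110, 0.182 and 0.171 in VC-labelled tumors. In KO-labelled cultures it was 0.0448, 0.0453 and 0.0499, against 0.00838, 0.00848 and 0.00705 in VC-labelled cultures. Egfr was thus the least abundant of the 3 receptors in every sample by this measure. Erbb3 held 36.2% ± 1.49 of the receptor signal in KO-labelled tumors and 44.0% ± 2.53 in VC-labelled tumors, and 60.6% ± 0.687 in KO-labelled cultures and 58.0% ± 1.25 in VC-labelled cultures.

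Among the ligands, Areg made up 23.1% ± 8.12 of the per-length signal in KO-labelled tumors and 21.5% ± 6.55 in VC-labelled tumors, and 49.7% ± 1.32 in KO-labelled cultures and 50.1% ± 3.02 in VC-labelled cultures. Tgfa had the largest mean share in the tumors, at 38.9% ± 12.4 in KO-labelled and 43.6% ± 7.04 in VC-labelled tumors, although it overlapped that of Hbegf (33.9% ± 5.44 in KO-labelled and 32.1% ± 8.97 in VC-labelled tumors). Hbegf made up 21.9% ± 0.344 of the ligand signal in KO-labelled cultures, against 14.8% ± 0.717 in VC-labelled cultures, where its own level did not differ beyond the spread. Errfi1 exceeded every receptor and ligand per length, at 52.4 ± 3.62 CPM per kilobase in KO-labelled tumors and 102 ± 27.1 in VC-labelled tumors, and 102 ± 2.81 in KO-labelled cultures and 64.2 ± 1.88 in VC-labelled cultures.

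The 3 KO-labelled tumors differed among themselves. Tumor POGZ_KO_8454 had the lowest Areg, Ereg, Hbegf, Tgfa, Btc and Nrg1 of the 3, and the highest Erbb2, Erbb3 and Errfi1. Tumor POGZ_KO_8455 had the highest Egfr, Areg, Ereg, Hbegf, Tgfa and Btc, and also the highest fibroblast and pericyte marker sum, 6794 CPM, against 3671 CPM in POGZ_KO_8454 and 4887 CPM in POGZ_KO_8459. Over the 12 samples Areg, Btc and Nrg1 ran together (Pearson r 0.96 for Areg with Btc, 0.95 for Areg with Nrg1 and 0.94 for Btc with Nrg1). Egfr ran against each of them (r -0.83, -0.87 and -0.81). These values describe 12 samples of which tumors and cultures stand apart, and the genes share libraries.

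The genes whose log2 CPM most resembled each of the 10, among 14024 candidates over the 12 samples, were found by Pearson's r. For Egfr they were Sgk1 (r 0.983), a kinase induced by serum and glucocorticoids, and Phyhd1 (0.982). Erbb2 was closest to Lama5 (0.960), a laminin chain, and Grb7 (0.955), an adaptor that binds Erbb2 and whose gene lies near it. Erbb3 was closest to Kdelc1 (0.983) and Pomgnt2 (0.974). Btc was closest to Kif21a (0.996) and Impdh1 (0.994), Areg to Foxk2 and Gm9727 (0.982 each), and Nrg1 to the mitotic genes Cdca8 and Kifc1 (0.990 each). Ereg was closest to 3110062M04Rik (0.978) and Htr2b (0.976). Hbegf was closest to Plod2 (0.955) and Csrnp1 (0.935), Tgfa to Ssbp1 (0.943) and Kbtbd2 (0.942), and Errfi1 to Atxn7l1 (0.933) and St5 (0.923). These r values are the highest among the candidates, over samples of which tumors and cultures stand apart. Ereg had 0 or 1 count in every culture.

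Of the other genes of the family, all but Nrg4 were low. Nrg4, a neuregulin, averaged 9.78 ± 1.64 CPM in KO-labelled tumors and 12.9 ± 2.84 CPM in VC-labelled tumors, and 12.6 ± 0.283 CPM in KO-labelled cultures and 11.5 ± 0.374 CPM in VC-labelled cultures, and was not called in either setting. Fbxo22, on the opposite strand, overlaps 6.06% of Nrg4's exon length, and whether counting used strand is not given in the sources used here. Erbb4, the fourth receptor, had 0 or 1 count in every culture, and averaged 1.11 ± 0.892 CPM in KO-labelled tumors and 0.271 ± 0.304 CPM in VC-labelled tumors. Egf averaged 1.58 ± 0.181 CPM in KO-labelled tumors and 1.02 ± 0.530 CPM in VC-labelled tumors, and Nrg3 had no counts in any sample. Of the 6 genes of this list 3 were high enough to test in culture, and Nrg2, another neuregulin, fell. It averaged 0.948 ± 0.283 CPM in KO-labelled cultures, against 2.01 ± 0.273 CPM in VC-labelled cultures (log2 fold change -1.05 ± 0.25, edgeR adjusted p = 0.00403). This value rests on 11 to 40 counts per library, and the single fit of all 12 samples did not call it.

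**Figure D5:**
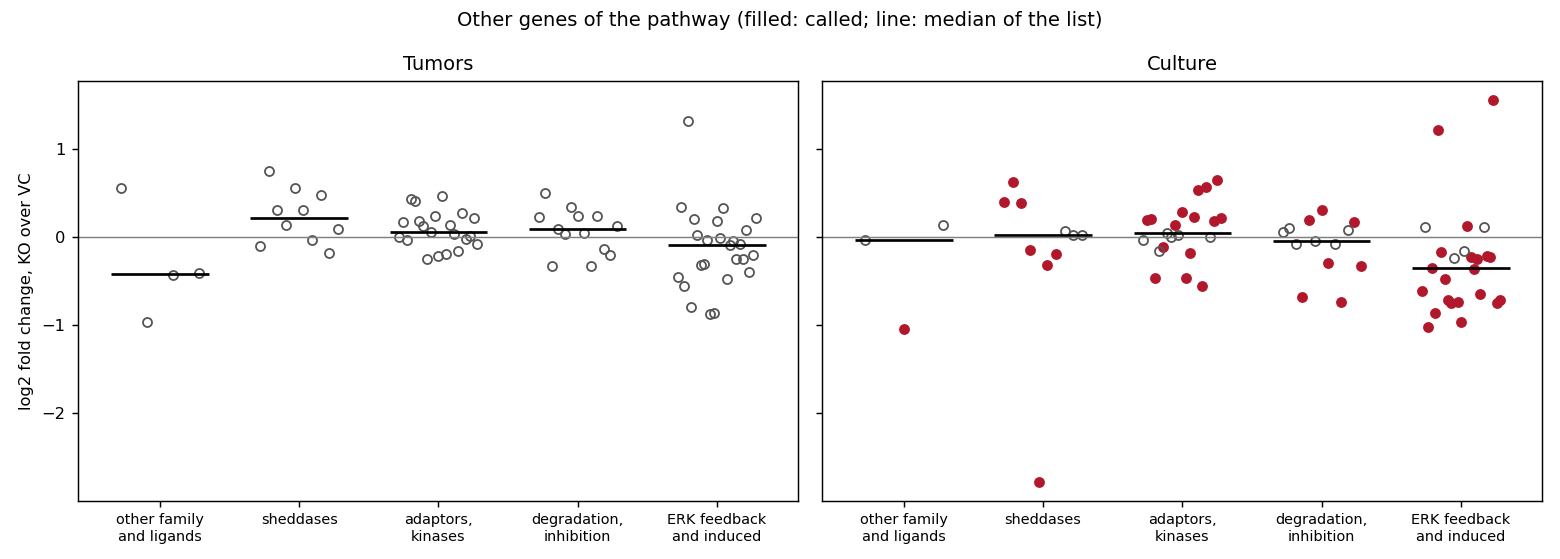
Log2 fold change of KO-labelled over VC-labelled samples for the tested genes of 5 other pathway lists, in tumors and in culture, filled where called, with the list median as a line. In culture 18 of 25 ERK feedback and ERK-induced genes were called lower, and in tumors no gene of any list was called.

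Further along the pathway in culture, 18 of 25 ERK feedback and ERK-induced genes fell in KO-labelled cells and 3 rose, where 24.9% of all genes tested were called lower and 23.0% higher. The pathway lists too were chosen with earlier results of these data known, so their counts, medians and p-values describe these libraries and are not independent evidence. The ERK list had a median log2 fold change of -0.35, beside a median of -0.01 over all genes. Dusp4 and Dusp6, phosphatases that switch off ERK, fell, with log2 fold changes of -1.02 ± 0.05 (edgeR adjusted p = 1.03e-08) and -0.86 ± 0.05 (4.24e-08), and the single fit of all 12 samples did not call Dusp4. Dusp6 averaged 37.3 ± 0.844 CPM in KO-labelled cultures, against 68.0 ± 3.16 CPM in VC-labelled cultures. Ccnd1, which encodes cyclin D1, averaged 430 ± 7.57 CPM in KO-labelled cultures, against 660 ± 14.5 CPM in VC-labelled cultures (log2 fold change -0.61 ± 0.04, adjusted p = 1.16e-07 with edgeR). The 3 that rose were Spry1, Egr1 and Ier3. Spry1, a Sprouty inhibitor of the cascade, averaged 82.9 ± 3.04 CPM in KO-labelled cultures, against 28.4 ± 1.57 CPM in VC-labelled cultures, with a log2 fold change of 1.55 ± 0.05 (edgeR adjusted p = 4.56e-10), and was not called in the single fit of all 12 samples. Egr1, an early transcription factor, rose by 1.21 ± 0.09 on the log2 scale (edgeR adjusted p = 5.24e-07). Ier3 was named after its value was seen, at 0.13 ± 0.04 (edgeR adjusted p = 0.0198).

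Of 10 sheddases and partners 3 rose and 4 fell in culture, with a median of 0.02, beside the same 23.0% called higher and 24.9% lower over all genes. Adam19, a metalloprotease that can shed neuregulin precursors, fell most. It averaged 2.74 ± 0.556 CPM in KO-labelled cultures, against 18.5 ± 1.5 CPM in VC-labelled cultures (log2 fold change -2.78 ± 0.13, edgeR adjusted p = 9.01e-09). Adam10 rose by 0.39 ± 0.04 (edgeR adjusted p = 9.17e-06) and Adam12 by 0.63 ± 0.04 (1.16e-07). Adam15 was called at 0.39 ± 0.06 (edgeR adjusted p = 0.000128), but its value with the chromosome medians taken out was 0.06 and not called. Adam8 fell, with a log2 fold change of -0.32 ± 0.05 (edgeR adjusted p = 0.00016). The single fit of all 12 samples called Adam19 and none of Adam8, Adam10, Adam12 and Adam15.

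Of 21 adaptors, kinases and transducers 10 rose and 5 fell, with a median of 0.05, where 23.0% of all genes were called higher and 24.9% lower. The kinase Src rose by 0.65 ± 0.05 (edgeR adjusted p = 7.97e-07), the adaptor Shc1 by 0.57 ± 0.06 (4.87e-06) and the phosphatase Ptpn11 by 0.53 ± 0.04 (2.91e-07). The PI3K subunit Pik3r1 fell (log2 fold change -0.47 ± 0.05, edgeR adjusted p = 6.19e-06). With the chromosome medians taken out, Src's value was 0.40 and Shc1's 0.24, both still called, and the single fit of all 12 samples did not call Shc1.

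Of 13 genes of receptor degradation and inhibition 3 rose and 4 fell, with a median of -0.05, shares near the 23.0% and 24.9% of all genes. Lrig1, which promotes the degradation of Egfr-family receptors, averaged 134 ± 0.636 CPM in KO-labelled cultures, against 216 ± 4.52 CPM in VC-labelled cultures (log2 fold change -0.68 ± 0.04, edgeR adjusted p = 3.35e-08). It lies on chromosome 6, and its value with the chromosome medians taken out was -0.23, still called. Sh3kbp1, an endocytic adaptor that works with Cbl, fell (-0.74 ± 0.06, edgeR adjusted p = 1.14e-06). The phosphatase Ptprj (-0.30 ± 0.05) and Ubash3b (-0.33 ± 0.06) fell, and Ptpn1 was called at 0.30 ± 0.05 but was 0.06 and not called with the chromosome medians taken out. Ptprj's value was -0.54 with them taken out, and the single fit of all 12 samples called none of these 3. None of the ubiquitin ligases Cbl, Cblb and Cblc was called.

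In tumors edgeR called 0 of the 73 pathway genes tested, with 8 at an unadjusted p under 0.05, and DESeq2 and limma-voom also called 0. The ERK list had a median log2 fold change of -0.09 there, beside 0.02 over all genes. Between tumors and culture the KO over VC effect was called different for 2 of the 73, Adam19 and Pik3r1, a share near the 2.05% of all genes. Adam19 averaged 74.7 ± 21.6 CPM in KO-labelled tumors, against 50.8 ± 9.05 CPM in VC-labelled tumors, and its difference was 3.31 ± 0.32 (edgeR adjusted p = 0.000572). Pik3r1 averaged 101 ± 20.5 CPM in KO-labelled tumors, against 73.6 ± 3.5 CPM in VC-labelled tumors, and its difference was 0.94 ± 0.18 (edgeR adjusted p = 0.0188). The Pik3r1 call was lost without any 1 of the 6 culture libraries. It was also lost without POGZ_VC_8451 and POGZ_KO_8459 together. The Pik3r1 difference had values of 0.77 to 1.08 over all 18 settings.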

How the data were processed

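The authors deposited 1 table of raw read counts per gene for the cultures and 1 for the tumors. Tools named in the submitters' processing notes are featureCounts 1.4.4, STAR 2.3.0e and Trimmomatic 0.32, with the mm10 build; genes carry Ensembl IDs, and the annotation release and the use of strand are not given in the sources used here. CPM is a gene's count over its library total, and CPM per kilobase divides this by the union exon length in GENCODE M21. Fold changes, SEs and calls came from edgeR 4.0.16 (R 4.3.3; TMM scaling, filterByExpr, quasi-likelihood test, Benjamini-Hochberg adjustment over all genes tested, threshold 0.05). The KO over VC comparisons were fitted within cultures and within tumors, and the tumor over culture comparisons and the difference of effects on all 12 samples. The script was tested on simulated counts. Chromosome medians used genes averaging 3 or more on the log2 CPM scale. Promoter sequences are RefSeq's, on GRCm38.p6.

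The 10 genes, the 5 pathway lists (75 genes) and the 11 cell type lists were chosen with earlier results of these data known. The text names all 10 genes, up to 5 called genes of each pathway list with the smallest p in each KO over VC comparison, and the 2 genes most like each of the 10, and says where a gene was named otherwise. One gene that this rule would name is not reported here. Alternatives were RLE scaling, no filter, a stricter filter (at least 1 CPM in at least 3 samples), DESeq2 1.42.0, limma-voom (limma 3.58.1), leaving out each library, leaving out VC tumor POGZ_VC_8451 and KO tumor POGZ_KO_8459 together, a single fit of all 12 samples, culture number as a block, and removal of chromosome medians. Same-numbered cultures did not deviate together (Pearson r -0.09, -0.01 and 0.04), so the numbers were not taken to pair them.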

Additional observations from a re-analysis of the deposited data

Results flagged for a closer look

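Among the 10 genes, Erbb3 and Errfi1 had every KO-labelled sample on one side of every VC-labelled sample in tumors and on the opposite side in culture. In tumors alone, 5.43% of the genes tested had every KO-labelled sample below every VC-labelled sample. The share of all genes that switched sides between the systems was not computed, so nothing is read from the number of members that did. Erbb3 was lower in every KO-labelled tumor and higher in every KO-labelled culture, and the log2 effect in tumors minus that in culture was -0.743138 (SE 0.231), which edgeR did not call but which was called with DESeq2 and without the KO-labelled tumor POGZ_KO_8454. Errfi1 showed the same pattern, with a difference of -1.63479 (SE 0.232) that edgeR and all 18 alternative settings called. Erbb3's culture log2 fold change was 0.02 and not called with the chromosome medians taken out, and its tumor groups were separated by a narrow margin. Both genes were chosen with these results known, so the difference carries no p-value and counts as untested.

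Among the other pathway genes, the difference passed edgeR's quasi-likelihood test for 2 of the 73 genes tested, beside 2.05% of all genes (377 of 18419). The pathway lists were chosen with earlier results of these data known, so these p-values are not independent evidence. Adam19 was lower in every KO-labelled culture, its groups overlapped in tumors, and the difference was 3.31452 (SE 0.324, adjusted p = 0.000572). Pik3r1 was lower in every KO-labelled culture and higher in every KO-labelled tumor, with a difference of 0.940802 (SE 0.176, adjusted p = 0.0188 in the edgeR fit). Of 18 alternative settings, 11 called the Pik3r1 difference, and all 18 called that of Adam19.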

How the results depend on the processing

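No called value of the 10 genes, and none of the pathway genes that the naming rule chose, changed sign under any setting run. Of the 243 recomputed counts of called genes, 215 lay within 1.5 times the count reported. In the KO over VC comparison of tumors, every count among the 215 was 0 against 0. In culture a single fit of all 12 samples called 1501 genes, 4 of the 10 genes and 13 pathway genes, against 7523, 7 and 51. In tumors DESeq2 called 66 genes and the single fit 64, and each called 2 of the 10, against 0 in both cases. For the difference of effects DESeq2 called 953 genes, 4 of the 10 and 8 pathway genes, against 377, 2 and 2. Leaving out each replicate gave 147 to 1588 genes, 2 to 6 of the 10 and 1 to 12 pathway genes there, each highest without KO tumor POGZ_KO_8454. Without VC tumor POGZ_VC_8448 it called 629 genes, and without a culture library 147 to 165. With culture number as a replicate block, 7237 genes, 7 of the 10 and 49 pathway genes were called in culture, so no count moved by over 1.5 times. The cause of these shifts was not tested. The depth of the VC-labelled tumors (from 4712001 counts) limits Ereg, Btc and Nrg1 most, at 3 to 29 counts per library.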
